A study of Mus musculus with 4 samples.

Results

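Pyruvate removal at 5 mM glucose was described from 1 pair of arrays, [Glc 5 mM/Pyr (−)] against [Glc 5 mM/Pyr (+)], of the 4 arrays in the series. The cells were IMS32 cells, an adult mouse Schwann cell line that became immortal without a transgene and has been kept as 1 line. All cells received DMEM with 5% FBS for 1 h, with 5 mM glucose and either 1 mM pyruvate or no pyruvate. The other pair, [Glc 15 mM/Pyr (−)] and [Glc 15 mM/Pyr (+)], differed from it in glucose and shares no array with it. Each array carried Cy3-labelled cRNA from total RNA of 1 sample, so no comparison below has a replicate check or a p-value, and an effect of pyruvate, of the culture and of the array cannot be told apart.

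The members were the genes with a probe well above background on both arrays of the pair. They numbered 17294 of the 22530 genes with a probe, and 11209 of them had an intensity over 200 on either array. The difference given for a gene is the log2 intensity without pyruvate minus that with pyruvate, each after subtraction of the 75th percentile of its own array and averaged over the probes of the gene. Levels are given as scaled intensities, in which the 75th percentile of every array was set to 1689. A gene is said to have risen or fallen only where its difference reached 0.32 on the log2 scale, which means that the higher level exceeds the lower by 25%.

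Pyruvate is the end product of glycolysis and enters mitochondria through a carrier, where pyruvate dehydrogenase turns it into acetyl-CoA and pyruvate carboxylase into oxaloacetate. The acetyl unit feeds the TCA cycle, and pyruvate in the medium can also accept electrons from NADH through lactate dehydrogenase. When mitochondria or amino acid supply are disturbed, cells phosphorylate the translation factor eIF2, which favours translation of ATF4, the transcription factor of the integrated stress response. Serum, in turn, induces immediate-early genes and targets of the YAP and SRF transcription factors in cultured cells.

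The arrays of the pair were alike in quality. Their 75th percentiles were 1788 with pyruvate and 1740 without, 30344 and 29513 of 39429 probes were well above background, and no spot was saturated. The Schwann cell markers fitted the label: 10 of 10 were above background on both arrays, Sox10, S100b, Ngfr and Pmp22 among them, while Erbb3 lay under 100 in intensity. The summed marker intensity, without scaling between the arrays, was 53339 with pyruvate and 55723 without, and 0 of the 10 reached 0.32. In such bulk RNA, fewer cells of a type and less RNA per cell cannot be told apart. Of the other cell types, 8 of 10 fibroblast markers were above background on both arrays, with Dpt at background on both. Their unscaled sum was 105688 with pyruvate and 106362 without. Macrophage, neuron and endothelial markers were above background for 7 of 8, 5 of 8 and 4 of 6, with Tyrobp, Syt1, Nefm, Stmn2 and Cdh5 at background. Their unscaled sums were 15958 and 14663, 10019 and 9077, and 5761 and 5586. Each sum outside the Schwann cell markers was mostly 1 gene and does not describe a cell type. With pyruvate these were Col1a2 of fibroblasts (91960), Itgam of macrophages (13155), Snap25 of neurons (9340) and Kdr of endothelial cells (5496). Of the markers of these other cell types, Aif1 of macrophages (−0.40) and the dim Rbfox3 of neurons (0.81) passed 0.32. The part of other cell types in the differences below was not tested.

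Few transcripts differed after 1 h without pyruvate. Across the 11209 genes over 200 the median difference was −0.00, the SD was 0.12, and the central 95% of genes lay between −0.24 and 0.23. At 0.32, 107 genes (0.955%) rose and 95 (0.848%) fell. At 1.5-fold 11 genes were higher (0.0981%) and 11 lower (0.0981%), and at 2-fold 2 were higher (0.0178%) and 1 was lower (0.00892%). Scaling on 10 spike-in probes, which moved the median of all genes by −0.12, gave 33 genes higher and 480 lower at 0.32. The corresponding SD of differences at 15 mM glucose was 0.21, with 452 genes (4.11%) higher and 456 (4.15%) lower at 0.32 among the 10987 genes over 200 in both pairs. The genes at or under 200, 6085 in all, spread more widely, with an SD of 0.37, so the account below keeps to the brighter genes unless a level is given. The list members nearest that limit were Hyou1, at 207 on its brighter array, and Cenpf, at 197.

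The error within an array was read from probes printed 10 times. For the 210 such probes over 200, the median SD over spots was 0.06 on the log2 scale on the first array and 0.07 on the other, and a difference between single spots would have an SD of 0.09. A difference of 0.32 is 3.52 times that SD. All spots without pyruvate lay above all spots with pyruvate for 3 of the 210 probes (1.43%) and below them for 10 (4.76%). Among the latter were Edn1, Fos, Ptgs2 and Ccl2. The Edn1 spots ranged from 540.2 to 659.8 with pyruvate and from 353 to 413 without. The Fos spots ranged from 956 to 1075 and from 700.4 to 832. The Ptgs2 spots ranged from 1051 to 1088 and from 760.3 to 908. This spread leaves out the variation between cultures.

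**Figure D1:**
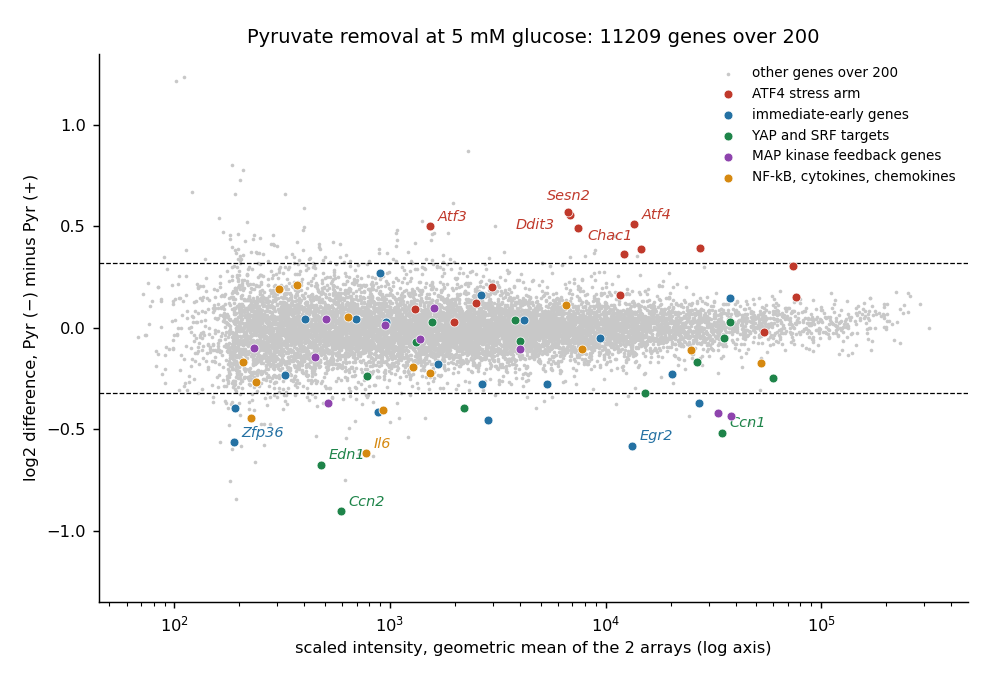
Log2 difference without minus with pyruvate at 5 mM glucose against scaled intensity for genes over 200, 1 array per condition, with 1 gene outside the axis (4930584F24Rik, −2.53). Dashed lines mark 0.32 either way. The ATF4 stress genes that rose lie above the grey cloud at their level, and Egr2, Ccn1 and Ccn2 lie below it.

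The list with the most genes that rose was the ATF4 stress arm, the targets of ATF4 and CHOP that act in the stress response itself rather than in amino acid supply. Of its 18 listed genes 16 were over 200. Against 0.955% of all genes higher and 0.848% lower, 8 of the 16 rose and 0 fell, and 15 of 16 differences were above 0. The median was 0.33 against −0.00 over all genes over 200, and the members ran from −0.02 (Eif4ebp1) to 0.57 (Sesn2). The list was chosen with these samples' results known, so its direction is a description, and under the spike-in scaling 5 of the 8 still reached 0.32.

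Atf4 itself stood at 11398 with pyruvate and 16234 without, a 1.42-fold difference of 0.51, with 0.48 and 0.54 for its 2 probes. Ddit3, which encodes the CHOP transcription factor downstream of ATF4, was at 5612 with pyruvate and 8264 without (difference 0.56). Atf3, a stress-induced partner of ATF4, was at 1289 and 1825 (0.50). These 3 transcription factors rose by between 0.50 and 0.56.

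Sesn2, which restrains mTORC1, rose most in the list, from 5499 to 8160 (0.57). Ddit4, another inhibitor of mTORC1, rose from 12753 to 16702 (0.39). Trib3, a pseudokinase that binds ATF4 and AKT, rose from 23888 to 31424 (0.40). These members all curb growth signalling. Chac1, which breaks down glutathione, rose from 6284 to 8850 (0.49). Ppp1r15a, whose product GADD34 directs dephosphorylation of eIF2, rose from 10697 to 13777 (0.37).

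The other 8 members over 200 did not reach 0.32. Nupr1, a stress-induced chromatin protein, came nearest at 66689 with pyruvate and 82353 without (0.30). Herpud1, of endoplasmic reticulum-associated degradation, was at 2763 and 3182 (0.20). Cebpb was at 11053 and 12353 (0.16), and Atf5 at 72166 and 80279 (0.15). Vegfa, Stc2, Cebpg and Eif4ebp1, which encodes the translation repressor 4E-BP1, lay between −0.02 and 0.12. Gdf15, a secreted stress factor, was measured under 200, at 86.9 and 133 (0.61), and Fgf21 was not well above background on both arrays.

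The ATF4 targets of amino acid supply did not move with them. None of the 15 enzymes of amino acid synthesis over 200 reached 0.32 (median 0.01), with Asns at 0.01, Psat1 at 0.01 and Phgdh at 0.03. None of the 11 amino acid transporters did (median 0.05), with Slc7a11 at −0.03 and Slc7a5 at 0.06. Of the 20 aminoacyl-tRNA synthetases 1 rose, Dars, from 1311 to 1659 (0.34), and their median was −0.02. The 16 chaperones of the endoplasmic reticulum had a median of 0.02 and 0 past 0.32.

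**Figure D2:**
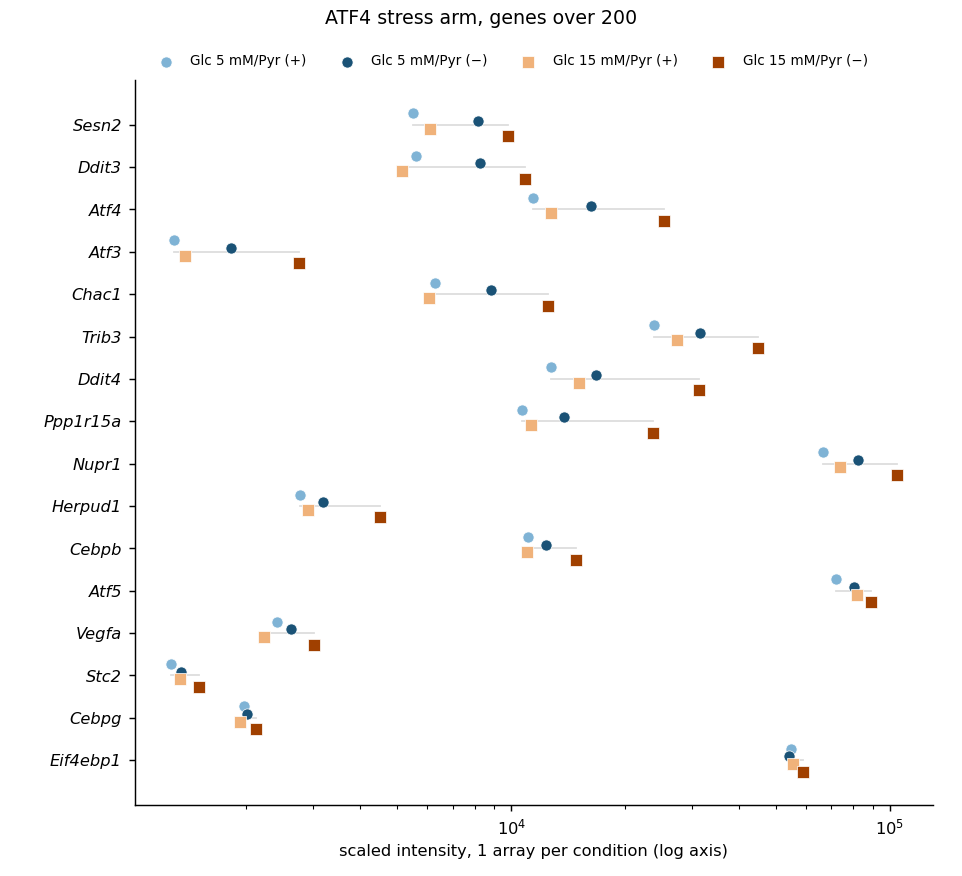
Scaled intensity (log axis) of the 16 ATF4 stress arm genes over 200 on the 4 arrays, 1 point per array, genes ordered by their difference at 5 mM glucose. [Glc 15 mM/Pyr (−)] is the highest array for every gene shown, and for the genes that rose [Glc 5 mM/Pyr (−)] lies between it and both arrays with pyruvate.

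All of these genes but Atf5 (0.15 and 0.13) had higher differences in the other pair than in this one. At 15 mM glucose 12 of the 16 were higher by 0.32 and 0 lower, against 4.11% and 4.15% of all genes, with a median of 0.66. Ddit3 was at 5159 with pyruvate and 10902 without (1.08), Atf4 at 12766 and 25244 (0.98), Chac1 at 6057 and 12514 (1.05), and Sesn2 at 6103 and 9820 (0.69). The array [Glc 15 mM/Pyr (−)] was the highest of the 4 for 16 of 16 members. It was the highest for 44.1% of the 10903 genes over 200 in both pairs that were measured by the same probes. Whether the differences at the 2 glucose concentrations are unequal was not tested, since each rests on 1 pair.

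The stretch of 250 bases before the transcription start was read for the 8 genes that rose (RefSeq, GRCm38.p6), because ATF4 binds composite elements with C/EBP proteins and cyclic AMP response elements. The letters searched on both strands were TGATGNAA for the composite element and TGACGTCA for the cyclic AMP response element, in the first listed promoter of each gene. The composite letters were found in 2 of the 8, Chac1 and Atf3, and the response element in 1, Ppp1r15a. Of 27025 genes with a promoter 3.53% held the composite letters and 1.62% the response element, and of the 8959 genes over 200 with one the shares were 1.84% and 2.91%. The members that did not reach 0.32 held the composite letters in 2 of 7. The 3 promoters with a match follow, from 5′ to 3′ on the strand of the gene with the match in capitals. They lie at chr2:119350992-119351241 (plus strand), chr1:191183334-191183583 (minus strand) and chr7:45526269-45526518 (minus strand).
Chac1: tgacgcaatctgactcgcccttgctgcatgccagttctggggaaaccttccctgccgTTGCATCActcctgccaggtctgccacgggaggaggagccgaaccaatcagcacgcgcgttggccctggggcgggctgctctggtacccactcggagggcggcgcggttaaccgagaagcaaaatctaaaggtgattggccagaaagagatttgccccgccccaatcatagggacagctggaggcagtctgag
Atf3: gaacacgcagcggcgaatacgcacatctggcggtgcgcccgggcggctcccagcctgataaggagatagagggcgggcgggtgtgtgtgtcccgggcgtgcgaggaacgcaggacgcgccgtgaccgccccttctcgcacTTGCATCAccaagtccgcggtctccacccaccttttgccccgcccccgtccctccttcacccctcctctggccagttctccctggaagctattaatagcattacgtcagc
Ppp1r15a: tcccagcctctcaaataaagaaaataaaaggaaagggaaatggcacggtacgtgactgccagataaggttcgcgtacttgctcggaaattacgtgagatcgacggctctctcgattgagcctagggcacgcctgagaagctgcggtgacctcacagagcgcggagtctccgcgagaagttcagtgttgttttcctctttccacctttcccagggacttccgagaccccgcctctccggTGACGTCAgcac
The composite letters appear in reverse complement 193 to 186 bases before the start of Chac1 and 110 to 103 bases before that of Atf3. The response element lies 12 to 5 bases before the start of Ppp1r15a. A match in letters describes the sequence and is not evidence of binding.

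Of the 22 list genes that fell 17 belonged to 4 lists of genes that serum, growth factors or cytokines induce. The YAP and SRF targets, genes of adhesion, matrix signalling and the actin cytoskeleton, had 14 of 16 members over 200. Against 0.848% of all genes lower and 0.955% higher, 5 of the 14 were lower and 0 higher. Their median was −0.20, and they ran from −0.90 (Ccn2) to 0.04 (Amotl2). Ccn2, which encodes connective tissue growth factor, fell the most of all named list members, from 811 to 433 (1.87-fold). Its probe lies at chr10:24318281-24318340 (mm9), and it had 1 spot. Edn1, the precursor of the vasoactive peptide endothelin, fell from 604 to 379 (−0.67) over 9 and 10 spots that did not overlap. Ccn1, a matrix protein related to Ccn2, fell from 41581 to 29075 (−0.52).

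Actg2, a smooth muscle actin, fell from 2526 to 1922 (−0.39). Thbs1, an adhesive matrix protein, fell from 16968 to 13561 and was the list member just past 0.32 (−0.32). The smooth muscle genes Tagln and Acta2 were at 65368 and 54998 (−0.25) and at 28217 and 25092 (−0.17), both short of it. Myl9, Vcl and Amotl2 lay between 0.03 and 0.04. Of the 5 genes that fell, the products of Ccn2, Edn1, Ccn1 and Thbs1 are secreted. At 15 mM glucose 4 of 14 were lower by 0.32 (4.15% of all genes) and 0 higher, with a median of −0.14. Ccn2 was at 727 with pyruvate and 389 without (−0.90), Edn1 at 494 and 373 (−0.41), Ccn1 at 33836 and 24552 (−0.46) and Actg2 at 2598 and 2007 (−0.37).

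Promoters of this group were searched for the TEAD element, GGAATG on either strand, since YAP acts through TEAD proteins, and for the CArG box bound by SRF. Of the 10 members over 200 with a promoter 7 held the TEAD letters, against 12.6% of all promoters and 10.4% of those of genes over 200. A CArG box was in 2 of the 10, against 1.40% and 1.16%. The list was made of YAP and SRF targets, so these shares describe the list and not the effect of pyruvate. A match in letters is not evidence of binding. The 5 genes that fell included 2 with a promoter, Ccn1 at chr3:145649986-145650235 (minus strand) and Edn1 at chr13:42301226-42301475 (plus strand). Both held the TEAD letters, and neither held a CArG box. Most of the 7 members with the TEAD letters were thus genes that did not fall. The promoters of Ccn1 and Edn1 are shown with the TEAD letters in capitals, in reverse complement. They lie 103 to 98 bases before the start of Ccn1 and 207 to 202 bases before that of Edn1.
Ccn1: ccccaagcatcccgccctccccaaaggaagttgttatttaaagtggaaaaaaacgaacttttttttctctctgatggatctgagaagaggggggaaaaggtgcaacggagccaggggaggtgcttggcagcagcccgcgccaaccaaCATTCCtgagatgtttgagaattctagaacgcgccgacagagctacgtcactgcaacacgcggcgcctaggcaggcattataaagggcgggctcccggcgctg
Edn1: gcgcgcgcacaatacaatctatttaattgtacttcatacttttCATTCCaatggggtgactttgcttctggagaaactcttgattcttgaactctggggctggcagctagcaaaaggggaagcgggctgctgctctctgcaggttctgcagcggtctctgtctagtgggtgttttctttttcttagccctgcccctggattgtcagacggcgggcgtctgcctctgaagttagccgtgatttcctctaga

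The immediate-early genes, which serum and MAP kinases switch on within minutes, had 19 of 21 members over 200, with a median of −0.23. At 0.32, 6 of the 19 were lower and 0 higher, against 0.848% and 0.955% of all genes (10 lower under the spike-in scaling). Over the alternatives tried, the number lower ran from 4 to 10. Relative to all genes the median was −0.22, and it was −0.11 when only genes over 500 were kept. Egr2, a zinc finger factor that also drives myelination in Schwann cells, fell from 16218 to 10844 (−0.58). Its relative Egr1 fell from 30677 to 23750 (−0.37). Fosb fell from 3320 to 2423 (−0.45) and Fos from 1011 to 759 (−0.41). Junb fell from 218 to 166 (−0.39), and Zfp36, which destabilises cytokine mRNAs, from 229 to 155 (−0.56). Junb and Zfp36 passed the limit of 200 only on the array with pyruvate, so their place among the genes that fell was partly built in.

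Not all members took that direction. Jun was at 35879 with pyruvate and 39788 without (0.15), Jund at 0.16, and Btg2, an antiproliferative gene that p53 also controls, at 813 and 982 (0.27). Myc, Ier3, Ier2 and Nr4a1 lay between −0.28 and −0.23, short of 0.32. Fosl1, Srf and Nr4a2 were within 0.05 of 0. Egr3 and Nr4a3 were not well above background on both arrays. In the 250 bases before the start, 1 of the 5 promoters read for the genes that fell held a CArG box. Over the whole list it was 2 of 15, against 1.40% of all promoters and 1.16% of those of genes over 200. Boxes further upstream were not searched, and these shares describe the list and not the effect of pyruvate. The match among the genes that fell was that of Zfp36 at chr7:28379229-28379478 (minus strand), 58 to 49 bases before the start. It is in capitals here because SRF drives immediate-early genes through such boxes.
Zfp36: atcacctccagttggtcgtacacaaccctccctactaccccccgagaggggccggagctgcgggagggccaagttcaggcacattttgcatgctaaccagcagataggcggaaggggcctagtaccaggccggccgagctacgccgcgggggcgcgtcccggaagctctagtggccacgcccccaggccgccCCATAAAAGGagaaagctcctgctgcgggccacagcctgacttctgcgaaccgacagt

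The median of the immediate-early genes, but not every gene, took the other direction at 15 mM glucose. There 10 of the 19 were higher by 0.32 and 1 was lower, against 4.11% and 4.15% of all genes, with a median of 0.35. Fos was at 658 with pyruvate and 4120 without (2.65), Zfp36 at 161 and 287 (0.84), Egr1 at 23108 and 36247 (0.65) and Junb at 177 and 226 (0.35). Egr2 was at 13737 and 11362 (−0.27) and Fosb at 2624 and 2433 (−0.11). The array [Glc 5 mM/Pyr (+)] was the highest of the 4 for Egr2 and Fosb, while [Glc 15 mM/Pyr (−)] was the highest for Fos, Zfp36, Egr1 and Junb. The levels on [Glc 15 mM/Pyr (+)] were near or below those on [Glc 5 mM/Pyr (−)] for Fos (658 and 759) and Egr1 (23108 and 23750). The same held for Zfp36 (161 and 155), Junb (177 and 166) and Fosb (2624 and 2423). For these genes [Glc 5 mM/Pyr (+)] stood above both. The arrays differ in glucose and are not replicates, so what set these levels was not tested. For Egr2 the levels were 13737 and 10844.

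The feedback genes of the MAP kinase pathway, which its activity induces, had 10 of 13 members over 200, with a median of −0.10. Of the 10, 3 were lower and 0 higher, against 0.848% and 0.955% of all genes. Errfi1, an inhibitor of the EGF receptor, fell from 44480 to 32864 (−0.44). Dusp6, a phosphatase of ERK, fell from 38437 to 28734 (−0.42), and Dusp5, a nuclear ERK phosphatase, from 585 to 453 (−0.37). Dusp1, a stress-induced phosphatase, was at 499 and 514 (0.04) here and at 444 and 1586 (1.84) in the pair at 15 mM glucose. Spry2, Spred1, Spred2, Dusp2, Dusp4 and Dusp10 lay between −0.14 and 0.10. At 15 mM glucose 2 of the 10 were higher by 0.32 and 1 lower, against 4.11% and 4.15% of all genes, with a median of −0.08.

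**Figure D3:**
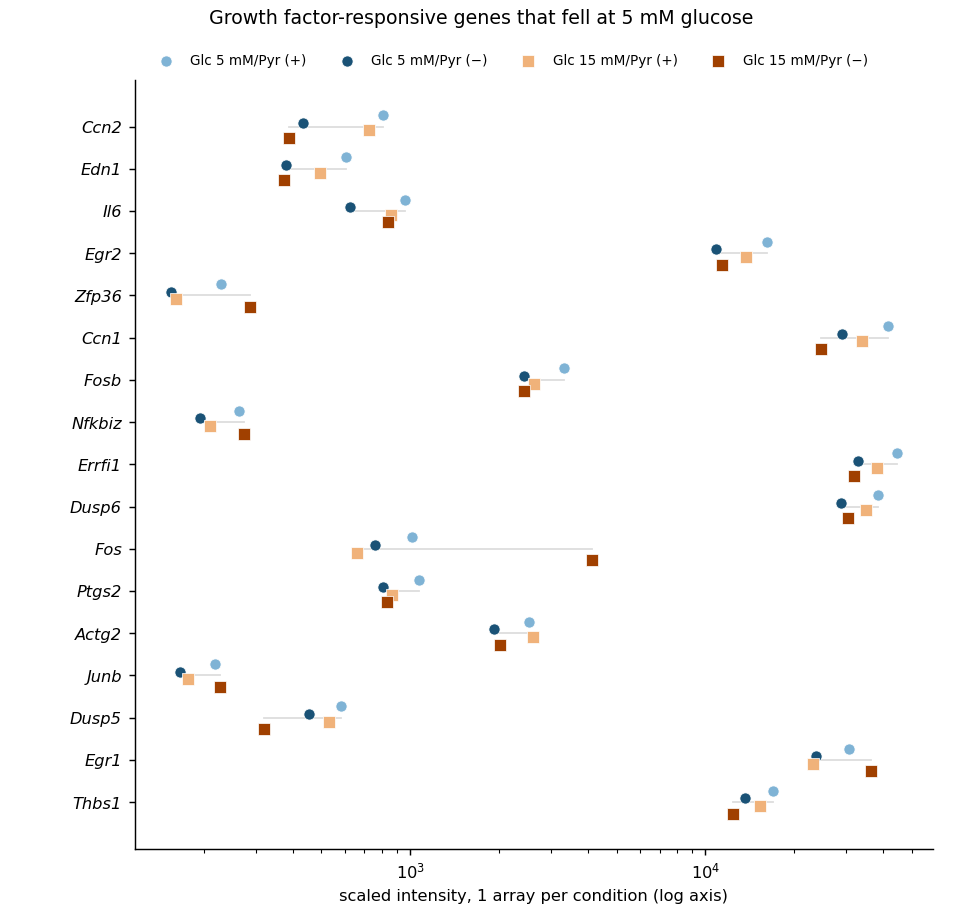
Scaled intensity (log axis) on the 4 arrays, 1 point per array, of the 17 genes that fell among the YAP and SRF, immediate-early, MAP kinase feedback and NF-kB lists. Ccn2, Edn1 and Ccn1 are lower without pyruvate in both pairs, whereas Fos, Zfp36, Egr1 and Junb are lower in the pair at 5 mM and higher in the pair at 15 mM glucose.

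The list of NF-kB feedback genes, cytokines and chemokines had 14 of 20 members over 200, with a median of −0.17. Of the 14, 3 were lower and 0 higher, against 0.848% and 0.955% of all genes (5 lower under the spike-in scaling). Il6 fell from 957 to 624 (1.54-fold), Ptgs2, the inducible cyclooxygenase, from 1067 to 806 (−0.40), and Nfkbiz, a nuclear NF-kB cofactor, from 264 to 194 (−0.45). Ccl2 was at 56059 and 49674 (−0.17), short of 0.32 although its 10 spots on either array did not overlap. At 15 mM glucose 4 of the 14 were higher by 0.32 (4.11% of all genes) and 0 lower, with a median of 0.19. Nfkbiz stood at 0.37 there, Nfkbia, the NF-kB inhibitor, at 0.60 and the chemokine Cxcl10 at 0.85. Il6 and Ptgs2 did not reach 0.32 there, at 859 and 839 (−0.03) and at 867 and 836 (−0.05). Klf10, an early TGF-beta target, fell from 14301 to 11347 (−0.33) and stood at −0.51 at 15 mM glucose.

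**Figure D4:**
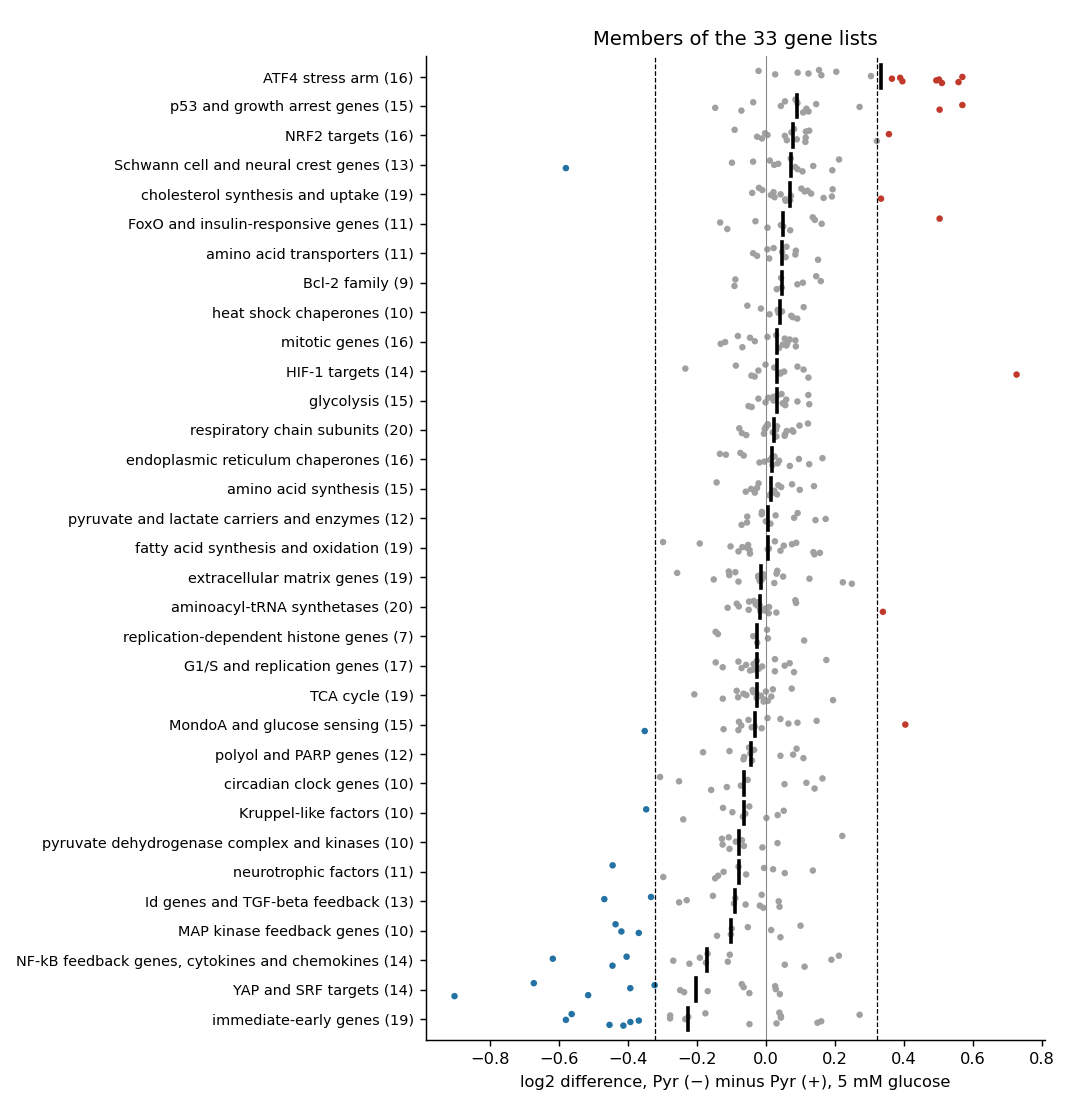
Log2 differences at 5 mM glucose of the members over 200 of the 33 gene lists, 1 point per gene, the number of members in brackets, black bars at the list medians and dashed lines at 0.32. Points in red rose and points in blue fell. The ATF4 stress arm has its median beyond the dashed line, and the immediate-early and YAP and SRF lists have the lowest medians.

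The genes that carry and use pyruvate did not reach 0.32, with 1 dim exception. Of the 10 genes over 200 of the pyruvate dehydrogenase complex with its kinases and phosphatases 0 reached 0.32, with a median of −0.08. Pdha1, a subunit of the complex, was at 4949 and 4598 (−0.11), and the kinases Pdk1, Pdk2 and Pdk3 lay at −0.09, −0.07 and −0.13. The kinase Pdk4, by contrast, was dim, at 12.0 with pyruvate and 73.4 without (2.61), on 1 probe with 1 spot (chr6:5433441-5433500, mm9). Over the alternatives tried this difference ranged from 0.93, after normexp background correction, to 2.72. At 15 mM glucose that probe gave 12.5 and 79.8, with the first not well above background. Among the 12 carriers and enzymes of pyruvate and lactate over 200 the median was 0.01 and 0 reached 0.32. The subunits of the mitochondrial pyruvate carrier, Mpc1 and Mpc2, were at −0.07 and 0.01, Pcx, pyruvate carboxylase, at 0.17, and Ldha at −0.00. The plasma membrane carriers Slc16a1, Slc16a3 and Slc16a7 were measured under 200 on both arrays, at −0.25, 0.14 and 0.17.

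The pathways that pyruvate feeds or leaves showed as little. Glycolysis had 0 of 15 members past 0.32 (median 0.03), the TCA cycle 0 of 19 (−0.03), the respiratory chain 0 of 20 (0.02) and fatty acid metabolism 0 of 19 (0.00). In all, 17 of the 33 lists had 0 members past 0.32, with medians from −0.08 to 0.05. Heat shock chaperones, mitotic genes, genes of replication, extracellular matrix genes and the Bcl-2 family were among them. Over the 451 list genes over 200, 14 rose (3.10%) and 22 fell (4.88%).

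Sensors of glucose, oxygen and electrophiles gave single genes rather than groups. Txnip, which MondoA induces when hexose phosphates build up, fell from 682 to 534 (−0.35), while its relative Arrdc4 was at 623 and 589 (−0.08). Pfkfb3, which raises glycolytic flux, stood at 0.40, but its brighter probe gave 0.15 and its dim one 0.66. Ankrd37, a HIF-1 target, rose from 157 to 259.7 (0.73), and the other 13 HIF-1 targets over 200 lay between −0.23 and 0.12. Ankrd37 passed the limit of 200 only on the array without pyruvate, where it was higher. At 15 mM glucose Ankrd37 was at 168 and 1362 (3.02). Gadd45a, a growth arrest gene of the p53 and FoxO lists, rose from 2571 to 3645 (0.50). Of the 16 NRF2 targets Osgin1 rose from 12401 to 15877 (0.36), and Hmox1, haem oxygenase, was the list gene just short of the threshold (0.32 after rounding). Insig1, which retains the sterol sensor in the endoplasmic reticulum, rose from 433 to 546 (0.33) among 19 cholesterol genes with a median of 0.07.

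Schwann cell identity genes other than Egr2 stayed within 0.32. Of the 13 such genes over 200, Sox10 was at 0.11, S100b at 0.19 and Gap43 at 0.21, with a median of 0.07. Among 11 neurotrophic factors, Clcf1, a ligand of the CNTF receptor, fell from 1699 to 1248 (−0.45). Bdnf and Gdnf lay at −0.30 and −0.14.

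The 22 genes past 1.5-fold need their probes beside them. For 11 of them the mean over probes rested on a dim further probe, and over probes above 200 alone these lay under 0.32 in size: Bcl2l15, Yod1, Slc10a1, Prdm10, Gcc1, Arhgap26, Ptprn2, Pxylp1, Tacr2, Scn8a and Tmco1. Slc10a1, a bile acid transporter, stood at 0.87 as the mean of −0.04 for a probe at 235057 and 228402 and 1.79 for a probe at 12.2 and 42.2. Its probes lie apart on chromosome 12, at chr12:100686870-100686929 and chr12:82061470-82061529 (mm9). Over probes above 200 alone, 6 of 11424 genes (0.0525%) were higher by 1.5-fold and 8 (0.07%) lower. Of the 22 genes the other 11 kept 1.5-fold: Ankrd37, Gzmm, AA684185 and Cd300lf were higher, and Ccn2, Tldc2, Edn1, Dnaja4, Il6, Olfr1349 and the clone 4930584F24Rik were lower. Dnaja4, a co-chaperone, disagreed between its probes, at −0.02 for the brighter and −1.22 for the other. The clone 4930584F24Rik was at 208 with pyruvate and between 36.1 and 47.7 on the other 3 arrays. What set the higher level on that single array was not tested. Cd300lf, a receptor of myeloid cells, rose from 1583 to 2422. AA684185, from 152 to 240.3, Tldc2, from 236 to 139.9, and Olfr1349, from 227 to 149.9, lay near the limit of 200. Each passed it only on the array where it was higher, as did Ankrd37. Gzmm, granzyme M, rose from 258 to 408 (0.66) here and stood at 318 and 1492 (2.23) at 15 mM glucose.

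Among the genes that rose at 5 mM glucose, 95 were over 200 at 15 mM as well. Of these 63 (66.3%) were above 0 there, against 56.9% of all genes, and 36 (37.9%) were higher by 0.32, against 4.11%. Of the 84 corresponding genes that fell, 47 (56.0%) were below 0, against 43.1%, and 15 (17.9%) were lower by 0.32, against 4.15%. Another 14 of the 95 and 15 of the 84 passed 0.32 the opposite way. Among genes with values on all 4 arrays, [Glc 5 mM/Pyr (+)] was the highest for 62 of 81 that fell, against 23.5% of all genes. It was the lowest for 62 of 91 that rose, against 28.7%. These genes were picked by their values on that array. By that choice [Glc 5 mM/Pyr (−)] could not be the highest for genes that fell or the lowest for genes that rose. The shares over all genes are thus not a like comparison, and how much of the excess was built in was not tested. Across the 10987 genes the differences of the pairs had a Pearson r of 0.15 and a Spearman rho of 0.10, a description over genes that share their arrays and are not independent.

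**Figure D5:**
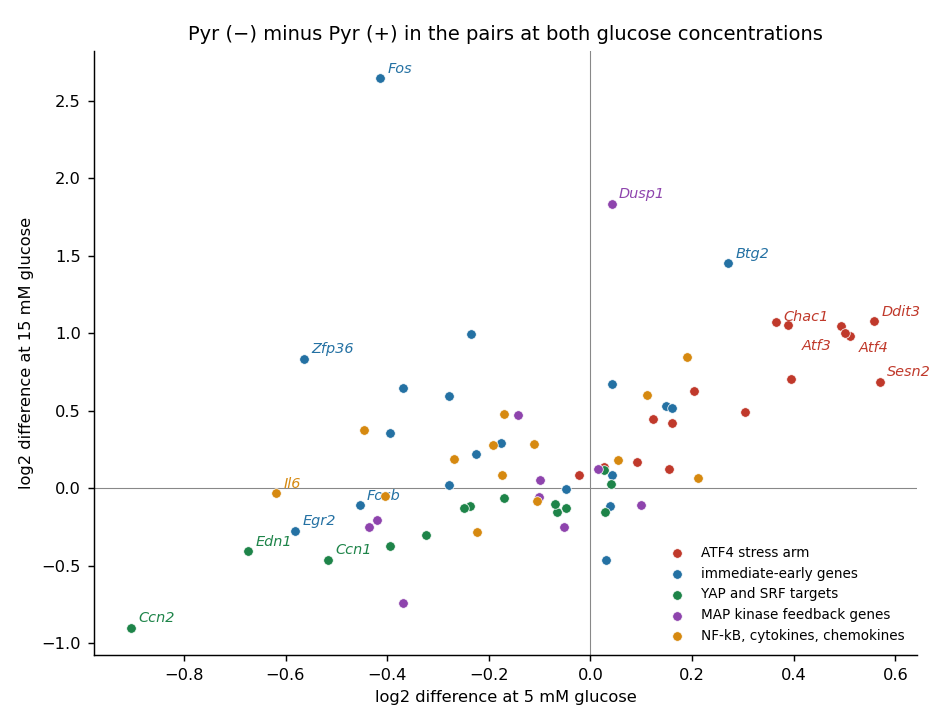
Log2 differences without minus with pyruvate at 5 mM (horizontal) and 15 mM glucose (vertical) for members of 5 lists over 200 at 5 mM, 1 point per gene from 1 pair of arrays on each axis. The ATF4 genes lie up and to the right, the YAP and SRF genes that fell lie down and to the left, and the immediate-early genes that fell are spread from Fos (2.65) to Egr2 (−0.27) on the vertical axis.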

How the data were processed

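Total RNA of 4 samples of IMS32 cells was labelled with Cy3 and hybridised to 4 Agilent 1-colour mouse arrays, 1 per condition. Per the submitters' processing notes, the authors read the scans with Feature Extraction 11.5.1.1, and the deposited scanner files hold background-subtracted spot intensity values, not normalised between arrays. The deposited value table holds a linear ratio of the same intensity to a divisor per array. All 44397 features matched that ratio within a relative 1e-06. The divisors were 1930 with and 1867 without pyruvate at 5 mM glucose and 1719 and 1773 at 15 mM, and the column medians 0.0566, 0.0553, 0.0535 and 0.0536, with no centring, and values of 1 colour carry no direction. How GeneSpring was set is not given in the sources used here.

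Control and outlier spots were left out, spots of a probe were averaged on the log2 scale, and the 75th percentile of the array over 39429 probes was subtracted. Probes well above background on both arrays of a pair were kept and averaged per gene in each pair, and levels at 15 mM glucose are printed only where both pairs used the same probes. Of 31093 gene names on the arrays 22583 matched a RefSeq symbol or synonym. With 1 array per condition there is no test, and the number of arrays limits the precision. Named genes were the 15 highest and 15 lowest of genes over 200 with a name other than a clone, list members past 1.5-fold, the highest and lowest member of each list, the genes of pyruvate dehydrogenase and the carriers, and genes measured on 1 array only. Other list genes past 0.32 were named to make up the counts, after their values were seen. The members, lists and thresholds were chosen with earlier results of these data known. Counting was tested on simulated data with known folds. Alternatives covered scaling, background correction, signal limit, probe rule and fold. R 4.3.3 with limma 3.58.1 ran normexp (offset 50), quantile and cyclic loess normalisation, and Python 3.11.15 with pandas 2.3.3 and numpy 2.4.6 ran the rest. Probe positions are those of the array files (mm9), and promoters are RefSeq GRCm38.p6, with no conversion between the builds. A few named genes are not reported here.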

Additional observations from a re-analysis of the deposited data

Results flagged for a closer look

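For 11 of the named genes over 200 in both pairs the difference without minus with pyruvate passed 0.32 one way at 5 mM glucose and the other way at 15 mM. They were chosen for these opposite signs, and each gap below is the difference at 15 mM minus that at 5 mM on the log2 scale. The difference between the concentrations was not tested, since each rests on 1 pair of arrays. The gap was 3.06 for Fos (−0.41 and 2.65), 1.40 for Zfp36 (−0.56 and 0.84), 1.02 for Egr1 (−0.37 and 0.65), 0.75 for Junb (−0.39 and 0.35) and 0.82 for Nfkbiz (−0.45 and 0.37). The gap was 1.20 for Txnip (−0.35 and 0.85). Scn3b, a sodium channel subunit, went the other way with a gap of −1.47 (0.53 and −0.95), as did Cd300lf, an inhibitory receptor of myeloid cells, with −1.53 (0.61 and −0.92). For Scn8a (1.17), Arhgap26 (−1.25) and Prdm10 (−1.13) the value at 5 mM rested on a dim probe, and their brightest probes gave 0.08, 0.11 and −0.02 there.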

How the results depend on the processing

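No paired analysis was possible because each condition has 1 array, and for the same reason no array could be left out. Of 3692 values recomputed under 14 alternatives, 13 of them planned and 1 (only probes over 200) chosen after seeing the data, 3429 moved by less than the SD of a single-spot difference or, for counts, by no more than 1.5 times. Every list kept its sign relative to all genes where it stood apart by more than that SD. Scaling by 10 spike-in probes moved the median of all genes by −0.12, with 6 and 28 genes higher and lower at 1.5-fold, 33 and 480 at 0.32, 5 ATF4 stress genes higher, and 10 immediate-early and 5 NF-kB list genes lower. With normexp, whose offset of 50 narrows differences, the counts were 1 and 2 at 1.5-fold and 69 and 43 at 0.32. With signal over 100 they were 40 and 33, and 171 and 197, and with no signal limit 240 and 276, and 632 and 960. With signal over 500, 4 were higher at 1.5-fold, 64 and 58 passed 0.32, and the immediate-early median stood at −0.11 relative to all genes. The brightest probe gave 7 lower at 1.5-fold, only probes over 200 gave 6 higher, and the 2-fold threshold gave 2 and 1. The brightest probe turned the sign at 5 mM for Scn8a (0.081), Prdm10 (−0.021), Slc10a1 (−0.041) and Yod1 (−0.22), and at 15 mM for Scn8a (−0.073, also by the median of probes) and Tmco1 (0.16), and probes over 200 gave the same values. Intensities near background limit every gene at or under 200.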

Other observations

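Outside the lists, genes for secreted ligands were among those that fell, chosen here after their values were seen. Hbegf, a ligand of the EGF receptor, was at 28260 with pyruvate and 20893 without (−0.44), and at 27183 and 20243 (−0.43) in the pair at 15 mM glucose. Pdgfb, a chain of platelet-derived growth factor, was at −0.46 and −0.60 in the pairs at 5 and 15 mM glucose. Trib1, a pseudokinase related to Trib3, stood at −0.34 and −0.39, opposite in sign to Trib3 in both pairs. Btc, another EGF receptor ligand, was at −0.37 at 5 mM and −0.00 at 15 mM glucose. Among genes that rose, Tob1 and Tob2, which curb proliferation, were at 0.42 and 0.48 at 5 mM and at 0.79 and 0.67 at 15 mM glucose. Tsc22d3, a glucocorticoid- and FoxO-responsive gene, was at 0.38 and 0.71. Gpd1, which passes electrons from NADH to dihydroxyacetone phosphate, rose from 552 to 709 (0.36) and stood at 0.37 in the other pair.

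Of the 22530 genes with a probe, a further 659 were well above background only on the array with pyruvate and 212 only on the array without. None of these exceeded 200 (highest 157). Over all 39429 probes, 77.0% were well above background on the array with pyruvate and 74.9% on the array without. Whether the unequal counts come from transcripts or from detection on the arrays was not tested. The widest bounds, the brighter intensity over the lowest signal well above background on the other array or the dim probe's own, whichever was higher, were these. Without pyruvate Defb6, Hoxc11 and Fbln5 were at least 15.3-fold, 13.4-fold and 12.1-fold higher, and with pyruvate Olfr877, Olfr520 and Olfr1465 were at least 15.4-fold, 12.3-fold and 9.26-fold higher, each on 1 probe.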
